A study of Homo sapiens with 12 samples.

Results

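The genes described here are 2 long non-coding RNAs of nuclear bodies, NEAT1 and MALAT1, and 5 proteins, NONO, SFPQ, PSPC1, RBM14 and HNRNPK, that bind NEAT1 or are needed for the body it builds. These 7 genes, of 63677 in the count tables, were chosen by the knock-down change itself, because NEAT1 was lower after knock-down while stress response genes were higher. Their knock-down values are therefore given as a description, with no test. All 7 were among the 21325 genes with enough counts to be fitted.

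Human cells cultured from basal-like breast cancers (the 3 lines HCC38, MDA-MB-468 and SUM149PT) received either a non-targeting locked nucleic acid oligonucleotide (LNA NS) or the oligonucleotides LNA1 and LNA2 together, which target a nuclear lncRNA matched here, by its genomic position alone, to the annotated gene LINC01956. Each transfection was at 50 nM, the medium was changed after 6 h and RNA was taken at 24 h. Poly(A)-selected, strand-specific libraries were sequenced in duplicate, which gave 12 libraries in 6 groups of line and treatment. Each line is a single cultured population, no untreated or mock-transfected cells were analysed here, and the labels do not say whether duplicates came from separate cultures, so the errors below may be technical. Every group carried an oligonucleotide, and the knock-down cells carried a pair of them.

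Gene counts per library ran from 32187835 to 56191152. Reads that fell in no gene made up 5.28% to 12.95% of a library. The targeted lncRNA LINC01956 (ENSG00000258910), on chromosome 2 (GRCh37, 119524541 to 119592686), had fewer counts in every knock-down library than in the LNA NS libraries of its line, with 1 and 1 against 29 and 23 (MDA-MB-468), 31 and 14 against 398 and 344 (SUM149PT) and 81 and 76 against 668 and 737 (HCC38). Markers of immune cells (5 genes) summed to at most 0.423 CPM in any library, and 9 or more of 10 basal epithelial markers averaged at least 1 CPM in each group except HCC38 with LNA NS, where 8 did. The summed basal markers were 8246 to 8979 CPM with LNA NS and 5109 to 5502 CPM after knock-down in MDA-MB-468, 8219 to 8584 and 7115 to 7208 CPM in SUM149PT, and 1133 to 1250 and 978 to 1027 CPM in HCC38, and their part in the results was not tested. With LNA NS, luminal epithelial markers (8 genes) summed to 2388 to 2522 CPM in MDA-MB-468, 1853 to 1981 CPM in SUM149PT and 659 to 722 CPM in HCC38. After knock-down these sums were 2330 to 2370, 1758 to 1829 and 717 to 760 CPM. Fibroblast markers (5 genes) summed to 17.0 to 19.3, 72.9 to 74.3 and 103 to 123 CPM with LNA NS in the same lines. Endothelial markers reached at most 7.18 CPM in any library. Bulk counts do not separate fewer cells with a transcript from less of it per cell.

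NEAT1 is the RNA scaffold of paraspeckles, bodies between chromatin domains that hold RNA-binding proteins and some nuclear-retained RNAs. Its long isoform builds the body together with the related proteins NONO, SFPQ and PSPC1, and its promoter is known to answer to several stress-responsive transcription factors. MALAT1, its neighbor on chromosome 11, gathers at nuclear speckles, which store splicing factors. Neither the long NEAT1 isoform nor MALAT1 ends in a poly(A) tail: both are cut by the enzyme that matures tRNAs, and a triple helix of U-rich and A-rich stretches protects the end.

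NEAT1 (ENSG00000245532) spans positions 65190245 to 65213011 of chromosome 11 (GRCh37, plus strand), which is 22767 bp. MALAT1 (ENSG00000251562) begins 52.1 kb beyond it and runs from 65265111 to 65275544, also on the plus strand. The ends of both RNAs, 100 bases each of genomic sequence read 5′ to 3′, are shown because they are the ends that lack the tail on which the libraries were selected; capitals mark runs of 8 or more bases that the pair share in the same order.
NEAT1, chr11:65212912-65213011: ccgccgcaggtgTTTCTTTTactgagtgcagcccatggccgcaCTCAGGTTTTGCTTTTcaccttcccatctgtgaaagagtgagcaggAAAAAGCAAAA
MALAT1, chr11:65273488-65273587: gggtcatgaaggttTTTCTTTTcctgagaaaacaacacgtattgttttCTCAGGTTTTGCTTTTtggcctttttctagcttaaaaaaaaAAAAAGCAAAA

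The shared runs were 8, 16 and 11 bases long: 2 U-rich stretches when transcribed, then an A-rich one at the very end. The MALAT1 window was placed by the 11 last bases of NEAT1, which occur at 2 places in the annotated MALAT1 gene, of which the one nearest the gene end is shown. NEAT1 also makes a short isoform with a poly(A) tail. Its end is shown next, as 60 bases in which the capitals mark the polyadenylation signal.
NEAT1 short isoform end, chr11:65193944-65194003: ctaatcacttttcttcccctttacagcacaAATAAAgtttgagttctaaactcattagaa

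The signal starts 3730 bases into the gene, and 8 of 9 annotated NEAT1 transcripts end no more than 3740 bases in. The other transcript reaches the gene end, so that 83.57% of the gene length belongs to the long isoform alone. Runs of 10 or more A, to which an oligo(dT) can pair inside an RNA, occurred 5 times in NEAT1, the longest of 22 bases, and 1 time in MALAT1, of 13 bases. The counts were summed per gene, so a NEAT1 value here is both isoforms together, and the share of each was not measured.

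NEAT1 levels, as TMM-normalized CPM, counts scaled to a common library size, were lower after knock-down in all 3 lines. In MDA-MB-468 the LNA NS libraries held 435 and 444 CPM and the knock-down libraries 246 and 212 CPM. In SUM149PT the values were 249.7 and 273 CPM with LNA NS and 133 and 163 CPM after knock-down. HCC38 had the highest level, 867 and 974 CPM with LNA NS and 445 and 472 CPM after knock-down. In no line did the groups overlap, and the knock-down level was 52.1%, 56.7% and 49.8% of the LNA NS level, in the same order.

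The log2 fold changes of NEAT1 were −0.94 for MDA-MB-468, −0.82 for SUM149PT and −1.004 for HCC38 (standard error 0.11 each), and −0.92 over the 3 lines (standard error 0.06). Without any 1 library they stayed between −1.06 and −0.84, −0.96 and −0.69, and −1.09 and −0.92. For scale, 15.2% of all fitted genes (MDA-MB-468), 9.74% (SUM149PT) and 6.36% (HCC38) had a lower fold change than NEAT1, since many genes moved by more than this after knock-down. Of the 3 lines HCC38, which starts from the most NEAT1, kept after knock-down about what MDA-MB-468 cells held with LNA NS, 459 against 439.8 CPM.

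The MALAT1 values pointed in different directions in the lines. In MDA-MB-468 it was at 323 and 249 CPM with LNA NS and 233 and 135 CPM after knock-down, so that the groups did not overlap. In SUM149PT its values of 139.6 and 212 CPM with LNA NS bracketed 195 CPM in 1 knock-down library, while the other was at 111 CPM. In HCC38 the knock-down libraries were at 569 and 1037 CPM, on either side of 1 of the LNA NS libraries, which were at 644 and 441 CPM. The log2 fold changes were −0.64, −0.20 and 0.57 (standard error 0.31 each), with a mean of −0.09 ± 0.18 (standard error).

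The duplicates of MALAT1 lay far apart. The SD expected for a difference between single libraries, from the replicate variances of both treatments of a line added on the log2 scale, was 0.62 to 0.72 for MALAT1, against 0.13 to 0.22 for NEAT1 and 0.02 to 0.15 for the 5 proteins. Leaving out 1 library moved the MALAT1 change between −1.10 (without knock-down replicate 1) and −0.30 (without knock-down replicate 2) in MDA-MB-468, and between 0.07 (without knock-down replicate 2) and 0.91 (without knock-down replicate 1) in HCC38. In SUM149PT its sign depended on the library left out: −0.65 without knock-down replicate 2, −0.47 without LNA NS replicate 1, 0.14 without knock-down replicate 1 and 0.12 without LNA NS replicate 2. The antisense transcript TALAM1 shares 8121 bp with MALAT1 and was not a feature of the count tables, and no source used here states whether the counting used strand.

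The libraries of a pair also differed in other RNAs that lack a poly(A) tail. RN7SK, a nuclear RNA made by RNA polymerase III and chosen after its values were seen, was at 75.2 and 72.7 CPM with LNA NS in MDA-MB-468 and at 86.3 and 9.46 CPM after knock-down. It was at 65.8 and 132 CPM with LNA NS and 28.1 and 129.99 CPM after knock-down in SUM149PT, and at 10.9 and 19.0 against 53.2 and 99.8 CPM in HCC38. In 5 of 6 groups the library with more RN7SK also had more MALAT1, and in 5 of 6 it had more NEAT1. For the other members this held in 2 (NONO), 1 (SFPQ), 1 (PSPC1), 3 (RBM14) and 2 (HNRNPK) of 6 groups. The share over all genes was not computed. For reads in no gene the count was also 5 of 6 for MALAT1 and for NEAT1. The exception was HCC38 LNA NS for MALAT1 and MDA-MB-468 LNA NS for NEAT1. In every group the library with more RN7SK was also the one with more reads in no gene. Both counts therefore compare the same libraries, and the second adds nothing to the first. How much of a MALAT1 or NEAT1 value these differences between libraries move was not tested.

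**Figure D1:**
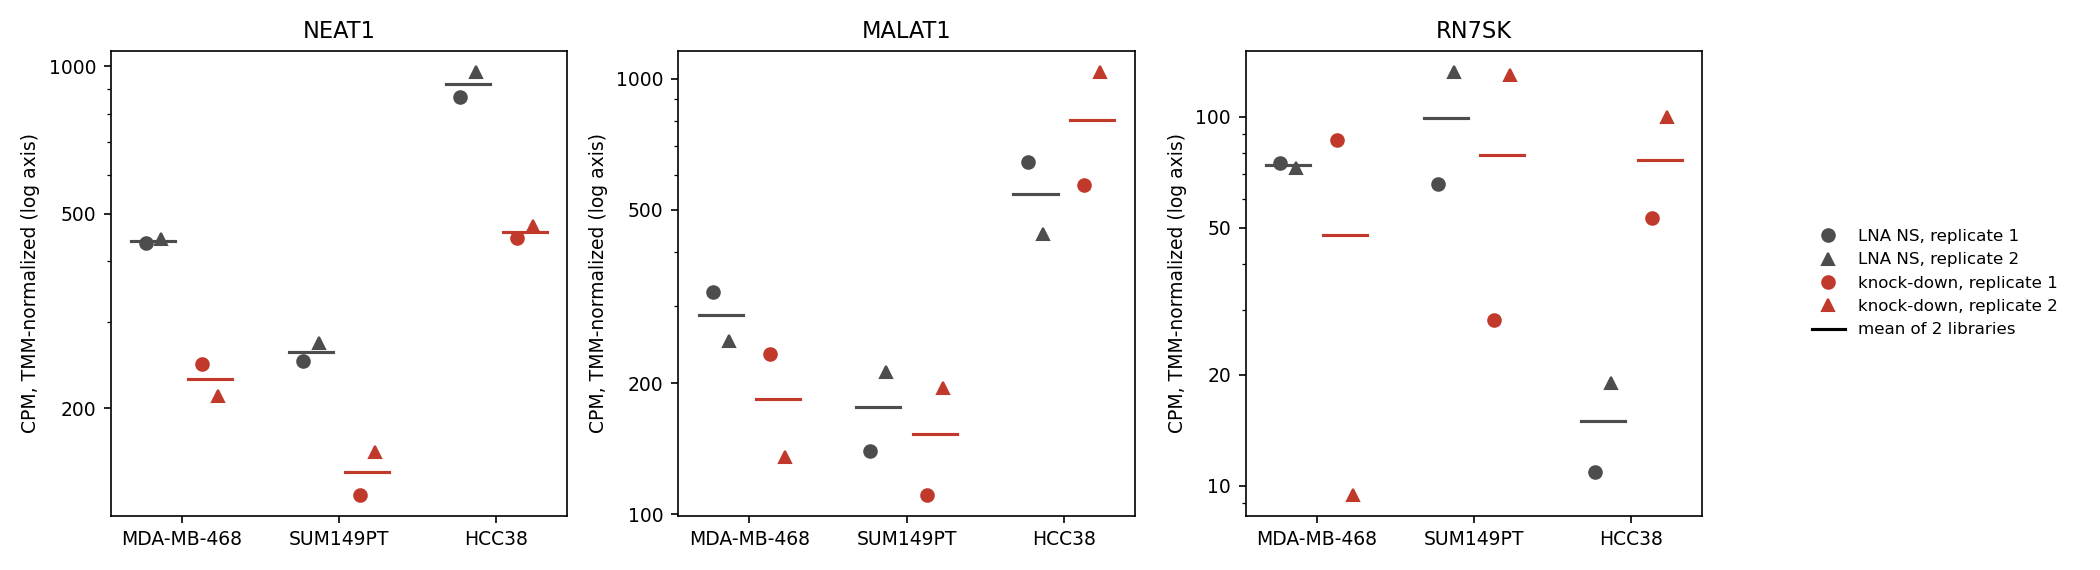
Levels of NEAT1, MALAT1 and RN7SK in each library, as TMM-normalized CPM on log axes, by line (x axis) and treatment (gray, LNA NS; red, knock-down). Circles and triangles are replicates 1 and 2 and bars their mean: NEAT1 knock-down libraries (133 to 472 CPM) lie below the LNA NS libraries of their line, while MALAT1 and RN7SK replicates of a group lie far apart in several groups.

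The core proteins of the paraspeckle, NONO, SFPQ and PSPC1, pair with each other through the same domain and are also splicing and transcription cofactors outside the body. NONO (chromosome X, 70474664 to 70521372) was at 443 and 481 CPM with LNA NS and 377 and 371 CPM after knock-down in MDA-MB-468. In SUM149PT it was at 492 and 477 CPM with LNA NS and 443 and 435 CPM after knock-down. In HCC38 it was at 366 and 401 CPM with LNA NS and 477 and 456 CPM after knock-down. Its groups did not overlap in any line, and its log2 fold changes of −0.30, −0.14 and 0.28 (standard error 0.08 each) pointed down in MDA-MB-468 and SUM149PT and up in HCC38. The ZMYM3 gene on the opposite strand shares 187 bp of exon with NONO.

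SFPQ (chromosome 1, 35641979 to 35659047) was the member furthest above its LNA NS level over the 3 lines, at a mean log2 difference of 0.34 ± 0.04 (standard error). The MDA-MB-468 libraries were at 529 and 545 CPM with LNA NS and 778 and 814 CPM after knock-down, and those of SUM149PT at 421 and 412 against 563 and 568 CPM. In HCC38 the LNA NS libraries, at 347 and 343 CPM, lay between the knock-down libraries at 359.6 and 339 CPM, so the groups overlapped. The log2 fold changes were 0.57, 0.44 and 0.02 (standard error 0.08 each).

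PSPC1 (chromosome 13, 20248892 to 20357159) is the least abundant of the trio. It was at 51.7 and 57.5 CPM with LNA NS and 43.1 and 39.2 CPM after knock-down in MDA-MB-468, and at 77.0 and 72.5 against 50.4 and 45.8 CPM in HCC38. In SUM149PT, the line with most of it, PSPC1 was at 106 and 99.5 CPM with LNA NS and 100.2 and 96.0 CPM after knock-down, and the groups overlapped. Its log2 fold changes were −0.41, −0.06 and −0.63 (standard error 0.10 each), with a mean of −0.37.

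RBM14 (chromosome 11, 66384097 to 66397405), a coactivator with a prion-like domain that paraspeckles need to form, was at 93.8 and 89.1 CPM with LNA NS and 131 and 149 CPM after knock-down in MDA-MB-468. It was at 100.1 and 100.5 against 111 and 106 CPM in SUM149PT, and at 87.8 and 99.4 against 103 and 101 CPM in HCC38. The groups did not overlap in any line, but the change in SUM149PT and HCC38, 0.11 and 0.12 on the log2 scale (standard error 0.09 each), was close to its error, against 0.62 in MDA-MB-468. The read-through gene RBM14-RBM4, which shares 432 bp of exon with it, held 0 to 6 counts per library.

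HNRNPK (chromosome 9, 86582998 to 86595546) binds C-rich RNA and is known to steer NEAT1 toward its long isoform by blocking use of the early polyadenylation site. It was at 496 and 497 CPM with LNA NS and 618 and 648 CPM after knock-down in MDA-MB-468, at 549 and 549 against 665 and 596 CPM in SUM149PT, and at 465 and 482 against 525 and 458 CPM in HCC38, where the groups overlapped. The log2 fold changes were 0.35, 0.20 and 0.05 (standard error 0.09 each). Without knock-down replicate 1 the HCC38 value was −0.07, and that of SFPQ in this line was −0.05. The antisense gene HNRNPK-AS1 (309 bp shared) held 1 to 16 counts.

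**Figure D2:**
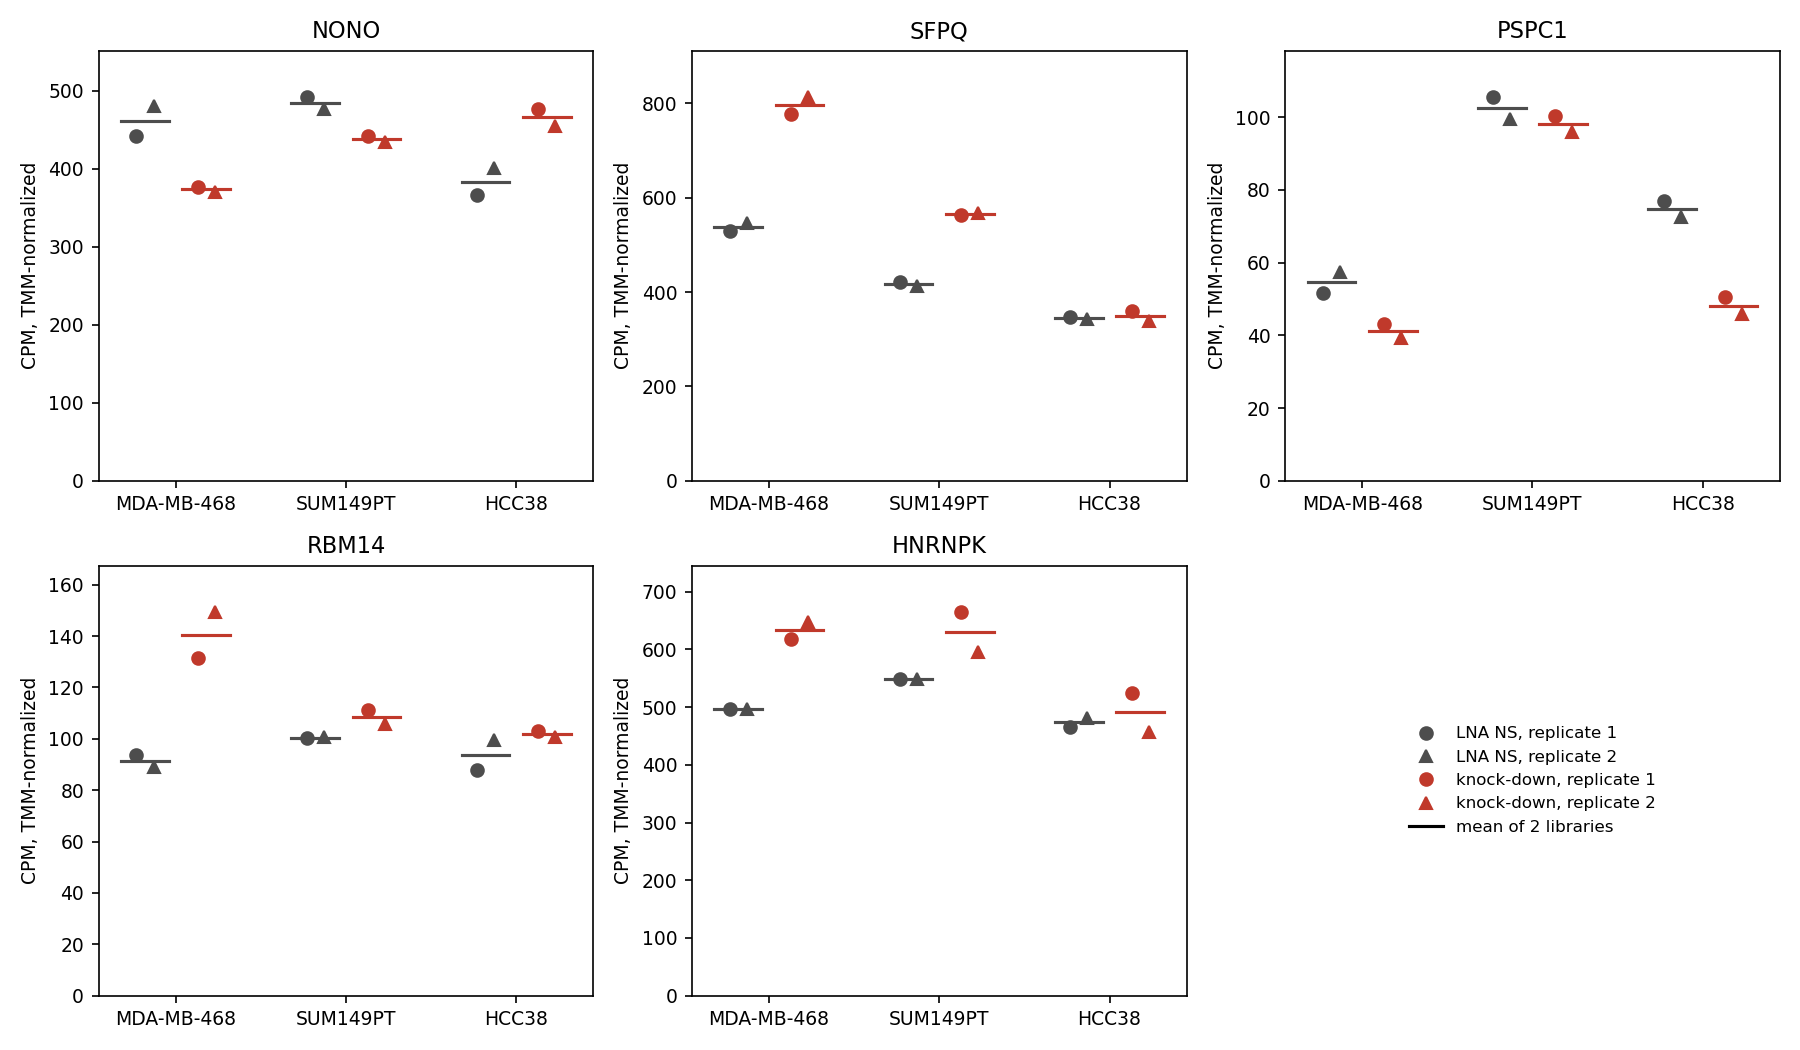
Levels of NONO, SFPQ, PSPC1, RBM14 and HNRNPK in each library, as TMM-normalized CPM on linear axes that start at 0, by line and treatment (gray, LNA NS; red, knock-down; bars, mean of 2 libraries). SFPQ, RBM14 and HNRNPK lie higher after knock-down in MDA-MB-468, PSPC1 lies lower in MDA-MB-468 and HCC38, and NONO lies lower in MDA-MB-468 and SUM149PT and higher in HCC38.

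In MDA-MB-468 all 7 members had groups that did not overlap, 3 with the knock-down libraries above and 4 below. Of all genes fitted, 69.8% had such groups in this line. In SUM149PT 5 of 7 did not overlap (3 above, 2 below), beside 63.1% of all genes, and in HCC38 4 of 7 (2 above, 2 below), beside 61.5%. Since the same contrast chose the members, nothing is read from these counts. NEAT1 was the member with the lowest change in each line, and the proteins of its body did not move in 1 direction.

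**Figure D3:**
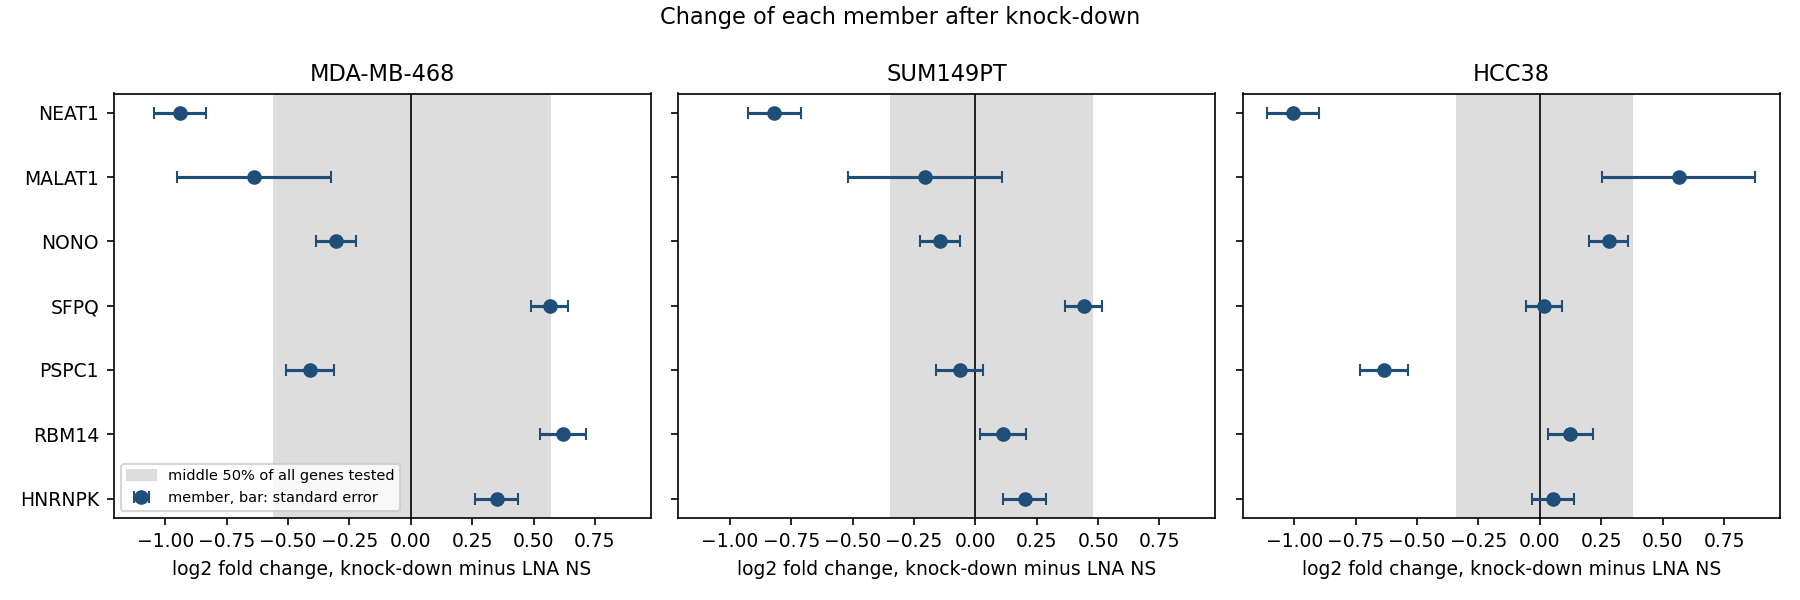
Log2 fold change of each member, knock-down minus LNA NS (x axis), in each line, with its standard error as bars; the gray band is the middle 50% of all 21325 genes fitted. NEAT1, from −1.004 to −0.82, is the one member left of the band in every line, and MALAT1 has the widest errors.

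The level of the members between lines, measured in the LNA NS libraries, played no part in their choice and was tested. By the F test of any difference, 6 of 7 members passed at an adjusted p under 0.1, beside 85.9% of all genes; RBM14 did not (adjusted p = 0.377), and HNRNPK passed at 0.0811. Between HCC38 and MDA-MB-468, 5 of 7 differed, 3 higher and 2 lower in HCC38 (71.4% of all genes). Between HCC38 and SUM149PT it was 6 of 7, with 2 higher and 4 lower in HCC38 (69.6%), and between MDA-MB-468 and SUM149PT 4 of 7, with 3 higher and 1 lower in MDA-MB-468 (68.5%).

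NEAT1 had the order HCC38, MDA-MB-468, SUM149PT, at 920.5 ± 75.3, 439.8 ± 6.49 and 261 ± 16.2 CPM (mean ± SD, n = 2 libraries each). Each step passed the test. HCC38 was 2.09-fold above MDA-MB-468 (log2 difference 1.07, standard error 0.11, edgeR adjusted p = 2.50e-07) and MDA-MB-468 1.68-fold above SUM149PT (log2 difference 0.75, standard error 0.11, edgeR adjusted p = 1.31e-05), so that HCC38 and SUM149PT differed 3.53-fold (edgeR adjusted p = 6.95e-10).

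MALAT1 followed the same order, at 542 ± 143, 286 ± 52.3 and 176 ± 51.3 CPM (SD, n = 2 each). HCC38 was 3.09-fold above SUM149PT (log2 difference 1.63, standard error 0.32, edgeR adjusted p = 3.51e-04). The step from MDA-MB-468 to HCC38 (log2 difference 0.92, edgeR adjusted p = 0.0170) was lost without HCC38 LNA NS replicate 1 (0.60, adjusted p = 0.149) or MDA-MB-468 LNA NS replicate 2 (0.73, adjusted p = 0.124). That from SUM149PT to MDA-MB-468 (0.70, edgeR adjusted p = 0.0626) was lost without replicate 1 of either LNA NS group (0.52 without that of MDA-MB-468, 0.45 without that of SUM149PT) and with DESeq2 (adjusted p = 0.218). HCC38 with LNA NS was the group with the fewest reads in no gene (5.28% and 6.05%) and the least RN7SK.

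SFPQ ran the other way for HCC38, at 537 ± 11.8 CPM (MDA-MB-468), 417 ± 6.55 CPM (SUM149PT) and 345 ± 2.58 CPM (HCC38; SD, n = 2 each), and each step passed (log2 differences 0.37 and 0.27, edgeR adjusted p = 4.86e-04 and 0.00494). PSPC1 was at 103 ± 4.31 CPM in SUM149PT, 74.8 ± 3.17 in HCC38 and 54.6 ± 4.12 in MDA-MB-468, again with each step past the threshold (log2 differences 0.46 and 0.45, edgeR adjusted p = 6.12e-04 and 6.43e-04). NONO was lower in HCC38 (384 ± 24.8 CPM) than in MDA-MB-468 (462 ± 26.8) or SUM149PT (485 ± 11.2), while the last 2 lines did not pass (log2 difference −0.07, edgeR adjusted p = 0.471).

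HNRNPK was at 549 ± 0.104 CPM in SUM149PT, 497 ± 0.384 in MDA-MB-468 and 473 ± 11.5 in HCC38 (SD, n = 2 each). Of its pairs, HCC38 against SUM149PT passed (log2 difference −0.21, edgeR adjusted p = 0.0410), a call lost with library totals alone (−0.14) and without HCC38 LNA NS replicate 1 (adjusted p = 0.143) or SUM149PT LNA NS replicate 1 or 2 (adjusted p = 0.125 and 0.114). RBM14 had the flattest profile, 100.3 ± 0.285 CPM in SUM149PT, 93.6 ± 8.22 in HCC38 and 91.5 ± 3.29 in MDA-MB-468, with no pair past the threshold. The largest of its differences was −0.13 on the log2 scale (standard error 0.09). The line with most NEAT1 RNA, HCC38, thus had the lowest NONO and SFPQ mRNA levels of the 3 lines.

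Per kilobase of annotated exon (RPKM), HNRNPK stood first in each line and the order of the others differed. In HCC38 with LNA NS, HNRNPK was at 83.1 ± 2.02, followed by MALAT1 at 52.0 ± 13.8, SFPQ at 44.7 ± 0.334, NEAT1 at 40.4 ± 3.31, NONO at 34.2 ± 2.21, PSPC1 at 15.5 ± 0.658 and RBM14 at 14.4 ± 1.27 RPKM (SD, n = 2 libraries). The libraries of MALAT1 overlapped those of SFPQ and NEAT1, and those of PSPC1 overlapped those of RBM14. In MDA-MB-468 and SUM149PT, SFPQ (69.6 ± 1.52 and 54.0 ± 0.848 RPKM) and NONO (41.1 ± 2.39 and 43.2 ± 0.997) stood above NEAT1 (19.3 ± 0.285 and 11.5 ± 0.711). A NEAT1 value per kilobase divides by the full span, of which the short isoform covers the first part. For the mRNAs the divisor is the merged length of all annotated exons, 11222 bases for NONO, 7720 for SFPQ and 5700 for HNRNPK. A single transcript can be shorter than this. The libraries were selected on a poly(A) tail, which MALAT1 and the long NEAT1 isoform lack. The order above is therefore not an order of abundance in the cells.

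Companion lists were taken from the known parts of both bodies and tested in the knock-down contrast. Over the 3 lines, 28.4% of all fitted genes rose and 26.5% fell at an adjusted p under 0.1, and the median change of all genes was 0.04 on the log2 scale. Of 34 nuclear speckle proteins, 21 rose, 5 fell and 8 did not pass, with a median of 0.22. Of 29 other paraspeckle proteins with enough counts, 14 rose, 4 fell and 11 did not pass, with a median of 0.10. Of 12 other nuclear lncRNAs, 1 rose, 6 fell and 5 did not pass, with a median of −0.38.

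Among nuclear speckle proteins, CCNL1, a cyclin of splicing kinases, was at 92.4 ± 4.25 CPM with LNA NS and 248 ± 36.1 after knock-down in MDA-MB-468, at 133 ± 1.65 and 259 ± 16.6 in SUM149PT, and at 83.2 ± 0.387 and 169 ± 2.40 in HCC38 (SD, n = 2 each). Its mean log2 fold change was 1.14 (standard error 0.06, edgeR adjusted p = 2.34e-10). RBM39, a U2AF-like splicing factor, rose by a mean of 0.66 (edgeR adjusted p = 2.97e-08), with 0.97, 0.75 and 0.25 in MDA-MB-468, SUM149PT and HCC38. CLK3, a kinase that phosphorylates SR proteins, rose by 0.58 (edgeR adjusted p = 6.01e-08), and the SR protein SRSF6 by 0.49 (edgeR adjusted p = 5.41e-07).

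In MDA-MB-468, 20 nuclear speckle proteins rose and 6 fell, where 24.9% and 25.7% of all genes did. In SUM149PT 17 rose and 3 fell (20.0% and 18.0% of all genes), with 11 and 1 left without knock-down replicate 1, 9 and 1 without LNA NS replicate 2, and 1 fall without knock-down replicate 2. In HCC38 9 rose and 4 fell (15.5% and 18.4% of all genes), and 4 rose without knock-down replicate 1 or LNA NS replicate 1. Whether the lines differ in these counts was not tested.

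Of the other paraspeckle proteins, those with the smallest p fell. SMARCA4, the ATPase of a chromatin remodeler also found in paraspeckles, was at 418 ± 29.1 CPM with LNA NS and 137 ± 19.9 after knock-down in MDA-MB-468, at 306 ± 36.3 and 181 ± 4.49 in SUM149PT, and at 320 ± 25.6 and 218 ± 14.7 in HCC38 (SD, n = 2 each). Over the lines it fell by 0.97 on the log2 scale (standard error 0.07, edgeR adjusted p = 5.75e-09). HNRNPH3, a splicing factor whose loss disrupts paraspeckles, fell by a mean of 0.61 on the log2 scale (edgeR adjusted p = 1.23e-08), with −0.75, −0.40 and −0.69 in the lines. WTAP, a subunit of the RNA adenosine methyltransferase, and AKAP8L, an anchoring protein of the nucleus, rose by a mean of 0.42 and 0.39 (edgeR adjusted p = 1.09e-05 and 8.60e-06). WTAP did not pass in HCC38 (0.19, edgeR adjusted p = 0.171), nor did AKAP8L in MDA-MB-468 (0.12, edgeR adjusted p = 0.280).

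By line, 13 other paraspeckle proteins rose (44.8%) and 3 fell (10.3%) in MDA-MB-468, where 24.9% and 25.7% of all genes did. In SUM149PT 14 rose (48.3%) and 5 fell (17.2%), beside 20.0% and 18.0% of all genes, and 7 rose without LNA NS replicate 2. In HCC38 7 rose (24.1%) and 6 fell (20.7%), beside 15.5% and 18.4% of all genes, but 3 rose without knock-down replicate 1, 4 rose and 3 fell without knock-down replicate 2, and 3 rose and 2 fell without LNA NS replicate 1. Of the list, TAF15 and CELF6 had 0 and 1 counts over all libraries under the identifiers matched, and were not tested.

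Most of the 12 other nuclear lncRNAs on the list fell or did not pass over the 3 lines. In MDA-MB-468, 1 rose and 6 fell, beside 24.9% and 25.7% of all genes. In SUM149PT it was 2 and 4 (20.0% and 18.0%), and in HCC38 1 and 2 (15.5% and 18.4%). Some, named after their values were seen, could hardly pass. MIAT was at 0.671 CPM or less in every group, FIRRE at 0.0943 CPM or less in MDA-MB-468 and SUM149PT, and CDKN2B-AS1 at 0 CPM in SUM149PT and HCC38. PVT1, a lncRNA next to MYC, was at 12.0 ± 1.32 CPM with LNA NS and 2.80 ± 0.169 after knock-down in MDA-MB-468, at 28.97 ± 0.718 and 10.6 ± 0.413 in SUM149PT, and at 40.4 ± 1.81 and 18.8 ± 2.37 in HCC38 (SD, n = 2 each). It fell by a mean of 1.55 on the log2 scale (standard error 0.08, edgeR adjusted p = 1.74e-10). HOTAIR, transcribed from the HOXC cluster, fell by 0.52 (edgeR adjusted p = 5.38e-05), and DLEU2, a microRNA host, by 0.61 (edgeR adjusted p = 0.00138). FTX, from the X-inactivation center, fell by 0.88 (edgeR adjusted p = 0.00266), at 3.09 CPM or less in every group. In HCC38, HOTAIR (−0.29), DLEU2 (−0.18) and FTX (−0.52) did not pass, nor did FTX in SUM149PT (−0.47). TUG1, named after its value was seen, was the lncRNA that rose over the 3 lines (0.25, edgeR adjusted p = 0.00822), with 0.33, 0.43 and −0.02 in MDA-MB-468, SUM149PT and HCC38. KCNQ1OT1, the antisense transcript of an imprinted locus and also named after its values were seen, did not pass over the lines (0.18, adjusted p = 0.752) and was barely detected in MDA-MB-468 (0.0952 CPM with LNA NS, 0.0468 after knock-down). It rose in SUM149PT from 18.9 to 35.3 CPM (0.90, edgeR adjusted p = 7.80e-04), and in HCC38, where it went from 24.3 to 37.6 CPM (0.63, edgeR adjusted p = 0.01003), the call was lost without knock-down replicate 1 (0.47, adjusted p = 0.113) or LNA NS replicate 1 (0.39, adjusted p = 0.160). MEG3 had 0 counts and was not tested.

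Genes whose products are known to cut or bind such ends were also measured. METTL16, an RNA methyltransferase known to bind the MALAT1 triple helix, fell in the mean contrast by 0.45 (edgeR adjusted p = 1.03e-05), with −0.32, −0.23 and −0.80 in MDA-MB-468, SUM149PT and HCC38. Of 12 such genes, the subunits of RNase P and its relatives, ELAC2 and METTL16, 6 rose, 3 fell and 3 did not pass, with a median of 0.16. By line, 5 rose and 3 fell in MDA-MB-468, beside 24.9% and 25.7% of all genes. In SUM149PT it was 4 and 2 (20.0% and 18.0%), and in HCC38 1 and 3 (15.5% and 18.4%). Over the lines RPP14 and RPP25, protein subunits of RNase P, rose by 0.42 and 0.34 (edgeR adjusted p = 1.49e-05 and 2.95e-05). The subunit POP5 fell by 0.49 (edgeR adjusted p = 5.10e-05). RPP14 did not pass in HCC38 (0.12), nor did RPP25 (0.10) and POP5 (−0.22) in SUM149PT.

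Of 6 transcription factors known to act on the NEAT1 promoter, 1 rose and 4 fell over the 3 lines, with a median of −0.33. By line, 4 (MDA-MB-468), 3 (SUM149PT) and 1 (HCC38, or 2 without its knock-down replicate 1) fell, where 25.7%, 18.0% and 18.4% of all genes fell. EPAS1, the hypoxia-inducible factor HIF-2α, was at 217 ± 21.7 CPM with LNA NS and 56.7 ± 6.69 after knock-down in MDA-MB-468, at 343 ± 43.1 and 119.5 ± 12.0 in SUM149PT, and at 262 ± 45.8 and 241 ± 29.8 in HCC38, where its libraries overlapped (SD, n = 2 each). Its mean log2 fold change was −1.19 (standard error 0.08, edgeR adjusted p = 6.01e-09). ATF2, a stress-activated factor, fell by 1.11 (edgeR adjusted p = 3.43e-08), HSF1, the heat shock factor, by 0.36 (edgeR adjusted p = 4.03e-05), and HIF1A, named like BRCA1 after its value was seen, by 0.29 (edgeR adjusted p = 0.00524). BRCA1 did not pass (0.10, adjusted p = 0.232). In HCC38, ATF2 was the one that fell (−1.27), HSF1 was at −0.08 (edgeR adjusted p = 0.584) and HIF1A at −0.21 (edgeR adjusted p = 0.277); in SUM149PT HIF1A was at 0.04.

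**Figure D4:**
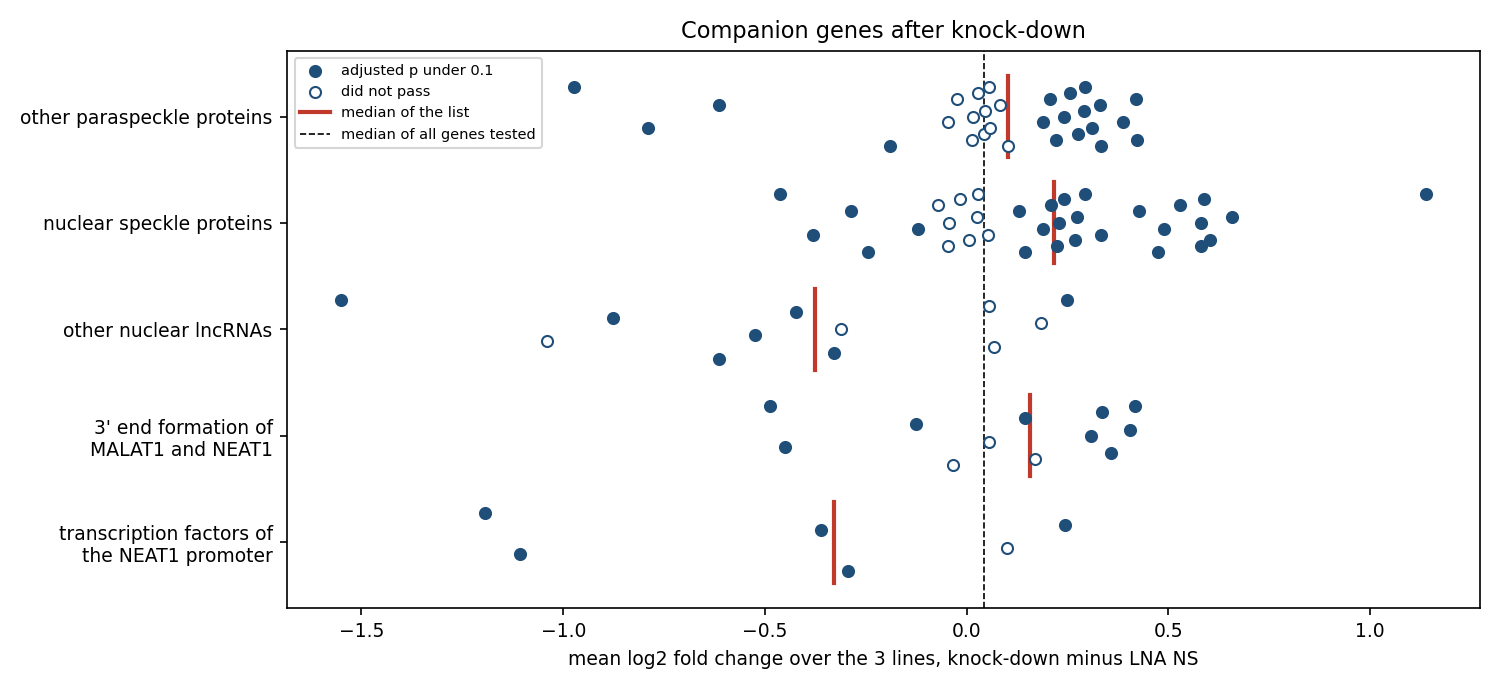
Mean log2 fold change over the 3 lines (x axis) of each gene of the companion lists, filled where the adjusted p was under 0.1; the red bar is the median of a list and the dashed line the median of all genes fitted (0.04). Nuclear speckle proteins have the highest median of the lists drawn (0.22), and other nuclear lncRNAs and transcription factors of the NEAT1 promoter have medians to the left (−0.38 and −0.33).

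The stress response list belongs to the values that chose the members and is given without a test. Its 22 genes had a median log2 fold change of 0.56 over the 3 lines, and 17 were above 0. CHAC1, ATF3, ASNS and PPP1R15A, targets of the amino acid and unfolded protein response, had mean changes of 1.94, 1.87, 1.45 and 1.46. CHAC1 was at 13.7, 23.8 and 2.15 CPM with LNA NS and 58.1, 70.1 and 9.64 CPM after knock-down (MDA-MB-468, SUM149PT, HCC38; means of 2 libraries). Its 6 heat shock genes, named after their values were seen, had mean changes of −0.13 (HSPA1A), 0.01 (HSPA1B), −0.07 (HSPA8), −0.05 (DNAJB1), −0.29 (HSP90AA1) and 0.36 (HSPH1). HSPH1 was at 0.78 in MDA-MB-468 and 0.69 in SUM149PT but −0.39 in HCC38, and HSP90AA1 at −0.15, −0.05 and −0.66 in the same order.

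Genes around NEAT1 and MALAT1 were examined to see whether their region moved as a block. Of 34 annotated genes within 250 kb of the interval from the start of NEAT1 to the end of MALAT1, 25 had enough counts, of which 10 rose, 9 fell and 6 did not pass over the 3 lines, with a median of −0.04. The counts were also taken by line. In MDA-MB-468, 7 rose and 12 fell, beside 24.9% and 25.7% of all genes. In SUM149PT it was 5 and 5 (20.0% and 18.0%), and in HCC38 9 and 4 (15.5% and 18.4%). Whether the lines differ was not tested. The neighbors nearest to NEAT1 on its upstream side fell, FRMD8 by 0.39 and SLC25A45 by 0.67 (edgeR adjusted p = 2.70e-05 and 6.88e-05), as did POLA2, the B subunit of the DNA polymerase that primes replication, by 1.03 (edgeR adjusted p = 4.98e-10). DPF2, between POLA2 and SLC25A45, rose by 0.21 (edgeR adjusted p = 0.00135). FRMD8 and SLC25A45 did not pass in SUM149PT (−0.06 and −0.15), nor DPF2 in HCC38 (−0.03). Between NEAT1 and MALAT1 lies the processed pseudogene FAUP4 (0.62, edgeR adjusted p = 0.00966), at 2.08 CPM or less, whose reads can belong to its parent gene.

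Beyond MALAT1, LTBP3, a binder of latent TGF-β, did not pass (−0.08, adjusted p = 0.266). Then ZNRD2 (−0.31), EHBP1L1 (−0.49), MAP3K11 (−0.41) and RNASEH2C (−0.32) fell, while the divergent transcript ZNRD2-DT (0.45), the potassium channel gene KCNK7 (0.74), RELA (0.30), the NF-κB subunit, and KAT5 (0.55), an acetyltransferase, rose. In HCC38, ZNRD2 (−0.12), EHBP1L1 (−0.10), MAP3K11 (−0.15), RNASEH2C (−0.16) and KCNK7 (0.58) did not pass. RNASEH2C did not pass in SUM149PT either (−0.24). ZNRD2-DT passed in HCC38 alone (0.75), and RELA and KAT5 rose in each line. SLC22A20P, a transporter pseudogene upstream of NEAT1, had the largest change of the region (mean log2 fold change 1.87, standard error 0.08, edgeR adjusted p = 5.96e-11). It was at 10.8, 1.82 and 5.47 CPM with LNA NS in MDA-MB-468, SUM149PT and HCC38, and at 36.1, 11.2 and 13.2 CPM after knock-down. CAPN1, the calpain protease beside it, fell by 0.44. PCNX3 (−0.17), FAM89B (0.19) and PGAM1P8 (0.39) passed narrowly (edgeR adjusted p = 0.0444, 0.0650 and 0.0861). PCNX3 was lost (−0.15 to −0.12) without replicate 2 of either HCC38 or MDA-MB-468 group or without SUM149PT LNA NS replicate 1, FAM89B (0.13 to 0.19) without any MDA-MB-468 library, replicate 2 of either HCC38 group or replicate 1 of either SUM149PT group, and PGAM1P8 (0.23 to 0.40) without any 1 library other than HCC38 knock-down replicate 1, MDA-MB-468 knock-down replicate 2 or SUM149PT LNA NS replicate 2. TIGD3 (0.31), CDC42EP2 (−0.10), SPDYC (−0.35, at 1.13 CPM or less in every group), SIPA1 (−0.02) and CAPN1-AS1 (−0.04) did not pass.

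**Figure D5:**
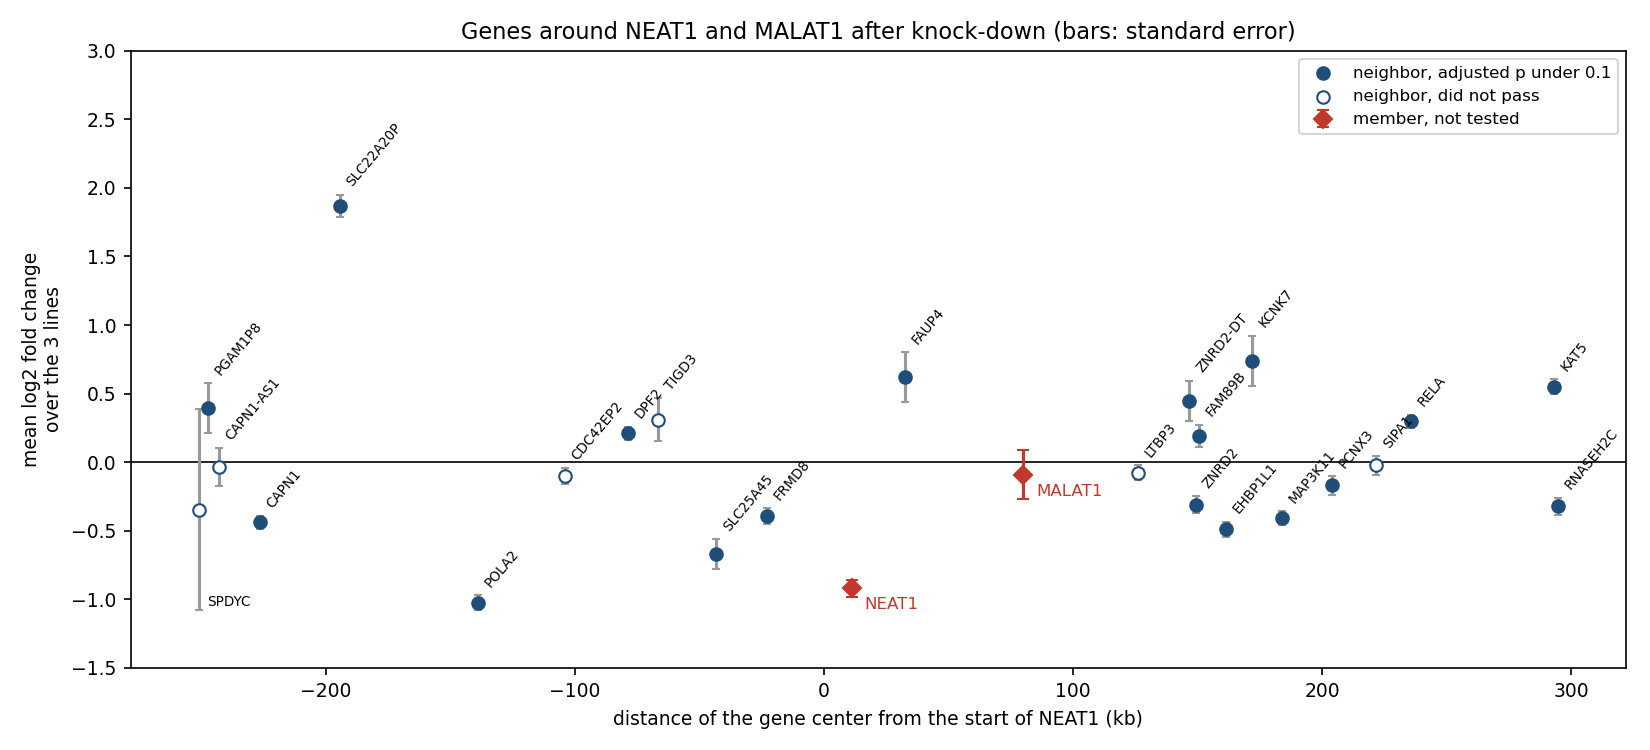
Mean log2 fold change over the 3 lines (y axis, bars: standard error) of 24 of the 25 genes fitted around NEAT1 and MALAT1, by distance of the gene center from the start of NEAT1 in kb (x axis); filled circles have an adjusted p under 0.1, and red diamonds are the members, which were not tested. Rising and falling genes alternate along the region.

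The genes whose level followed NEAT1 most closely were found by Pearson's r of log2 CPM over the 12 libraries after the mean of each line was removed, among 10106 genes with a mean of at least 10 CPM. These were FOXI1 (r = 0.989), VAC14 (0.986), ARHGEF19 (0.985), COL16A1 (0.985) and AKT1S1 (0.983), all of them lower after knock-down in each line, with log2 fold changes from −0.51 to −0.54 for FOXI1 and from −2.81 to −3.06 for VAC14. The libraries share their knock-down state, so such an r carries that contrast. Among the members, PSPC1 came closest to NEAT1 (r = 0.831), MALAT1 (0.216) and NONO (0.170) were nearly unrelated to it, and RBM14 (−0.749), SFPQ (−0.784) and HNRNPK (−0.792) ran opposite.

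For MALAT1 the closest genes were TRPM2 (r = 0.949), STXBP2 (0.940), FAM234A (0.923), ZNF653 (0.914) and MIR3648 (0.913). MIR3648 is annotated within the ribosomal RNA precursor, and it is listed because its level correlates with MALAT1 in these libraries, so the likeness is no separate evidence. Its values were 74.1 and 62.2 CPM with LNA NS and 50.1 and 16.4 CPM after knock-down in MDA-MB-468, 35.1 and 116 against 27.5 and 147 CPM in SUM149PT, and 21.4 and 22.7 against 42.0 and 138 CPM in HCC38. In HCC38 with LNA NS the duplicates hardly differed in MIR3648, while MALAT1 was at 644 and 441 CPM. The part of library composition in the MALAT1 values was not tested.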

How the data were processed

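RNA of 12 samples was poly(A)-selected and sequenced as strand-specific libraries. The authors deposited raw read counts per Ensembl gene for each library. The submitters' processing notes name TopHat2 2.0.13 and HTSeq 0.6.0 (also CASAVA 1.8.4, DESeq 3.0, R 3.1.1 and bedtools 2.17.0), whereas the methods of the study name STAR as the aligner. The strand setting and the annotation release used in counting are not given in the sources used here. Summary lines that name no gene held 40.8% to 53.7% of the counts in a file and entered neither the library totals nor any test; the share of reads in no gene was taken over the whole file. Multi-mapping reads were among these lines, so genes with close copies are undercounted.

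Gene symbols and positions came from the GENCODE annotation on GRCh37, which matched 55665 of 63677 genes; the others held 0.6359% of the counts. The 7 members, the lists and the tests were chosen with earlier results of these data known. Genes were filtered with filterByExpr (minimum count 10, minimum total 15) and 21325 were fitted in edgeR 4.0.16 (R 4.3.3) by the quasi-likelihood test after TMM normalization, with 1 mean for each of 6 groups and 6 residual degrees of freedom. P-values were adjusted over all genes fitted by Benjamini-Hochberg, and genes were called at an adjusted p under 0.1, the false discovery rate of the study. The test was checked on simulated data in which all genes had the same spread and the lines did not differ. Only genes with a mean of at least 1 CPM were changed in it, so the check does not cover low genes or genes with noisy duplicates. RPKM divides CPM by the merged annotated exon length. Replicates differed beyond sampling noise (chi-square per degree of freedom 15.8 to 27.9 in each pair), so each library counted as 1 sample. Standard errors cover the spread between these libraries, pooled over the 6 groups, and that of 1 line is not the spread of its own duplicates.

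The genes named were all members, the genes annotated over them, for each list up to 4 genes of smallest adjusted p in the mean contrast, all neighbors fitted, and the 5 genes most like NEAT1 or MALAT1; others are said to be named after their values were seen. A few genes that this rule would name are counted in their lists but not reported here. Alternatives were DESeq2 1.42.0, its size factors, library totals alone, TMM without the members, other filters, a line or the LNA NS libraries fitted alone, a replicate block, and each library left out in turn. No sequence of the LNA oligonucleotides was used here. Figures were drawn with matplotlib 3.10.9.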

Additional observations from a re-analysis of the deposited data

Results flagged for a closer look

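Some genes had every knock-down library on 1 side of LNA NS in 1 line and on the other side in another, a difference between lines that was not tested. The knock-down change of NONO on the log2 scale was −0.30 (MDA-MB-468), −0.14 (SUM149PT) and 0.28 (HCC38). Of the neighbors of NEAT1, CDC42EP2 was at −0.60 in MDA-MB-468 and 0.30 in HCC38, and LTBP3 at −0.32 and 0.15. SIPA1, a RAP1 GTPase activator gene near MALAT1, was at −0.78 (MDA-MB-468), 0.26 (SUM149PT) and 0.45 (HCC38), and its mean over the lines was −0.02.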

How the results depend on the processing

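Of the counts and NEAT1 changes that answer a comparison, 382 values under an alternative stayed close to the main value (a count within 1.5 times of it, a NEAT1 change within the SD between libraries) and 1 did not: with at least 10 counts in every library, 2 transcription factors of the NEAT1 promoter rose, against 1. For a NEAT1 change, leaving out 1 library of a pair moves the group mean by less than this SD. Those checks could hardly fail, so nothing is read from them, and their ranges are given with the NEAT1 values above. With 1 library left out, the counts over the 3 lines ranged from 14 to 15 risen and 4 to 4 fallen for other paraspeckle proteins, 19 to 21 and 4 to 5 for nuclear speckle proteins, and 8 to 10 and 8 to 10 for the neighbors. Members that differed between lines numbered 5 to 6 by the F test.

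In HCC38, other paraspeckle proteins that rose numbered 7, but 11 with library totals alone or with at least 10 counts in every library and 4 with no filter; those that fell numbered 6, but 3 with library totals alone. HNRNPK between MDA-MB-468 and SUM149PT passed with DESeq2 size factors (adjusted p = 0.0916), with DESeq2 (0.0935) and with the LNA NS libraries alone (0.0667). TIGD3 passed in 6 settings, and LTBP3 without MDA-MB-468 knock-down replicate 1 (−0.12, edgeR adjusted p = 0.0976).

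Over 14833 genes, the deviations of same-numbered libraries correlated weakly, at −0.02, 0.16 and −0.25 in MDA-MB-468, SUM149PT and HCC38. The share of reads in no gene was nevertheless larger in both treatments for replicate 1 in MDA-MB-468 and for replicate 2 in SUM149PT and HCC38. RN7SK was higher in the same libraries. Whether the numbers mark a shared batch was not tested. With the replicate block, 14 other paraspeckle proteins rose and 4 fell, 20 and 5 nuclear speckle proteins, 1 and 6 nuclear lncRNAs, 6 and 2 genes of end formation, 1 and 4 transcription factors, and 8 and 9 neighbors, with FAM89B (adjusted p = 0.112) and PGAM1P8 (0.107) no longer past the threshold; NEAT1 stood at −0.94, −0.82 and −1.0, and 6, 5, 6 and 4 members differed between lines in the F test and the 3 pairs. With the HCC38 numbers crossed, chosen after seeing the data, the lists in the same order had 15 and 4, 21 and 5, 1 and 6, 7 and 3, 1 and 4, and 11 and 9. Duplicates differed by more than counting error, so the spread between libraries, more than depth, set the standard errors. These errors pool the spread over the 6 groups, so that of 1 line does not rest on its own duplicates alone. Among the members they were widest for MALAT1.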
